A study of Homo sapiens with 6 samples.

Results

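The genes examined encode the enzymes that build cholesterol and fatty acids from acetyl-CoA, together with the factors that sense sterol and the proteins that carry it. They were 36 genes chosen by name: 19 enzymes of sterol synthesis, 7 enzymes of fatty acid synthesis, 5 regulators of the SREBP transcription factors and 5 genes of sterol transport. Of these, 32 had a row in the table of 16571 gene symbols, and 28 passed the filter on low counts that left 10695 genes for testing. Expression of MVK, TM7SF2, ACLY and SREBF2 was not analysed here.

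RNA-seq was performed on A2780, an established human ovarian cancer cell line. Both groups were infected with lentivirus and selected with puromycin as stable lines, so the vector and the selection were common to them. The 3 pGIPZ-NC libraries came from cells with the control vector, and the 3 shUSP39 libraries came from cells with a short hairpin that targets the spliceosome protein USP39. The design text calls the samples biological triplicates. Neither it nor the labels say which hairpin sequence was used or whether the replicates were separate infections. The p-values therefore set the group difference against the spread between these libraries, which may not be that between separate infections.

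The libraries held 28294819 to 32939264 counts each. Genes with at least 1 count numbered 12662 to 12819 in the pGIPZ-NC libraries and in shUSP39 replicate 1, but 15446 in shUSP39 replicate 2 and 14890 in shUSP39 replicate 3. Because these libraries stood apart, the results were also computed with shUSP39 replicate 1 alone. The labels were not checked on the knocked-down gene, since USP39 was not analysed here. Of 8 markers of epithelial and ovarian carcinoma cells, 7 had a row. PAX8, EPCAM, KRT7 and CDH1 were under 1 CPM (counts per 1000000 of the scaled library total) in every library, and the sum was 22.2 to 25.4 CPM in pGIPZ-NC against 32.6 to 39.5 CPM in shUSP39, mostly from KRT18. KRT8 went the other way, with 0.878 to 1.14 CPM in pGIPZ-NC and at most 0.0938 CPM in shUSP39, and MUC16 was at most 0.188 CPM in every library except shUSP39 replicates 2 and 3, at 4.90 and 2.40 CPM. Of 6 leukocyte, endothelial and fibroblast markers, 3 were under 1 CPM in every library (PTPRC, CD3E and PECAM1), and the sum was 7.17 to 10.8 CPM in pGIPZ-NC against 6.22 to 8.66 CPM in shUSP39, mostly from COL1A1. Within this list DCN, a fibroblast marker, was at 0.677 to 1.74 CPM in pGIPZ-NC and at most 0.203 CPM in shUSP39. The part of these marker shifts in the results was not tested.

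Cholesterol is made through the mevalonate pathway, in which acetyl-CoA is condensed, reduced and phosphorylated to isoprenoid units that are joined into squalene and then cyclised into sterols. Fatty acids are made from the same precursor by acetyl-CoA carboxylase and fatty acid synthase, and the product is then elongated and desaturated. Both pathways are transcribed under the SREBP factors, which SCAP escorts from the endoplasmic reticulum to the Golgi for cleavage by proteases, while INSIG proteins hold the complex back when sterol is plentiful. Since bulk RNA was measured, fewer cells that express a gene and less RNA per cell cannot be told apart.

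Promoter sequence is shown as an example for SCD, ACAT1, MVD and SCAP, which passed the test, and for MSMO1, one of the few members with a match to a sterol regulatory element. Stretches of FADS1, FADS2 and ELOVL6 overlap exons of these genes and are not printed, nor are those of ACACA and NPC1, and all of them are in the counts over windows. The windows are RefSeq sequence from 250 bases before to 50 bases after a transcript start in the GRCh38.p14 table, and 31 of 36 members had at least 1 window, with 43 windows in all. ACAT2, FDFT1, SQLE, FASN and ABCG1 were not matched. Each line gives the stretch of 120 bases before the start with the most motif matches, 5′ to 3′ on the strand of the gene, and positions are those of its single exact match in GRCh37. Capitals mark matches, on either strand, to a sterol regulatory element (TCACNCCA), a CCAAT box (CCAAT), a GC box (GGGCGG) or an E-box (CACGTG), and matches of different motifs may overlap.
SCD, chr10:102106740-102106859, plus strand: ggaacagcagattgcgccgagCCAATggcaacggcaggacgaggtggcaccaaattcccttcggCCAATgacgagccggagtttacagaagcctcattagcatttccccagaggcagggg
ACAT1, chr11:107992127-107992246, plus strand: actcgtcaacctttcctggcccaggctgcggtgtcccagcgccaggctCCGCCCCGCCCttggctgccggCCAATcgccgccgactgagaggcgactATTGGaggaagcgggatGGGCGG
MVD, chr16:88729580-88729699, minus strand: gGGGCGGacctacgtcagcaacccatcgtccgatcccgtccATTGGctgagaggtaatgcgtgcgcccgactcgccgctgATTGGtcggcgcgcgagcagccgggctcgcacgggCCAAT
SCAP, chr3:47517466-47517585, minus strand: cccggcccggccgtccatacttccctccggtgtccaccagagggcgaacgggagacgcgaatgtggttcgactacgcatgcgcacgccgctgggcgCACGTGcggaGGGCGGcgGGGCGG
MSMO1, chr4:166248571-166248690, plus strand: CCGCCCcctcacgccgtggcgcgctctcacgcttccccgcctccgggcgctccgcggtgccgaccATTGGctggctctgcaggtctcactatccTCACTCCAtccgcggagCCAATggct
In GENCODE 44 mapped to GRCh37, the SCD, MVD and MSMO1 stretches lie outside any annotated gene. The SCAP stretch is intronic to the span of SCAP. The printed ACAT1 stretch lies in an intron of ACAT1 and in an exon of a long noncoding RNA on the opposite strand. ACAT1 has another window, which is counted but not printed, and its stretch overlaps an exon of ACAT1 and holds 0 motif matches. The stretch of MSMO1, an enzyme of sterol demethylation, holds a match to TCACNCCA 156 bases before the start with a CCAAT box on each side. The stretches of SCD, the stearoyl-CoA desaturase, and MVD, the mevalonate diphosphate decarboxylase, hold CCAAT boxes and no match to TCACNCCA.

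Over all member windows, CCAAT was found in 26 of 43 windows (60.5%), against 34.6% of all 35116 windows of the same length. The GC box was found in 38 of 43 member windows (88.4%), against 45.0% of all windows. The SRE letters were in 3 member windows, those of MSMO1, MVK and SREBF2, or 6.98% against 3.95% of all windows. Among 10 windows of fatty acid synthesis enzymes, 6 held CCAAT and 0 held TCACNCCA. These shares describe the letters in the windows and are not evidence of binding.

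**Figure D1:**
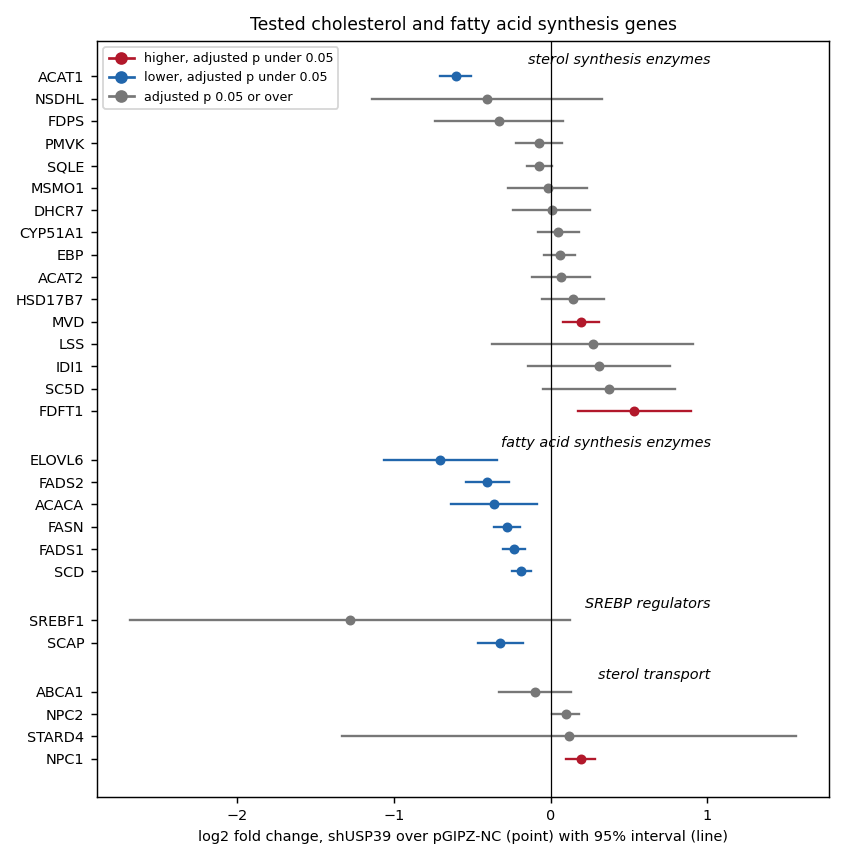
Log2 fold change of shUSP39 over pGIPZ-NC (x axis) for each of the 28 tested genes (y axis, grouped by role). Points are estimates from edgeR, lines are 95% intervals, and colour marks an adjusted p under 0.05. All 6 fatty acid enzymes lie left of 0, while the sterol enzymes lie on both sides of it.

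The comparison of shUSP39 with pGIPZ-NC asked how these pathways stood after depletion of the splicing factor. The 6 tested enzymes of fatty acid synthesis on the list were all lower in shUSP39, with changes from -38.6% to -12.2%. The sterol synthesis enzymes moved in both directions and most did not pass the test. SCAP, the escort protein of the SREBP factors, fell by 0.32 on the log2 scale, and NPC1, which releases cholesterol from lysosomes, rose by 14.2%. Of the 28 tested genes, 3 were higher, 8 were lower and 17 did not pass at a Benjamini-Hochberg adjusted p under 0.05 in edgeR's quasi-likelihood test. Over all genes, 33.6% passed, 16.1% being higher and 17.5% lower, so 11 of 28 is close to the background. None of the 28 was past the adjusted p with a change beyond 2-fold, against 6.81% of all genes, and the median log2 fold change was -0.05 against 0.01 for all genes tested. In 6 members the 3 shUSP39 libraries were all above the 3 pGIPZ-NC libraries and in 10 they were all below, where 21.7% and 22.5% of all genes did so.

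In the fatty acid group, 6 of the 7 enzymes were measured and all 6 fell, with a median log2 fold change of -0.32. All 6 passed as lower, where 17.5% of all genes did so. In each of them every shUSP39 library was below every pGIPZ-NC library, as in 22.5% of all genes. Summed over the 6 enzymes, the level was 4995, 5289 and 5380 CPM in pGIPZ-NC replicates 1 to 3 and 4297, 4435 and 4447 CPM in shUSP39 replicates 1 to 3. FASN made up more than any other enzyme of this sum, and without it the sums were 2126, 2153 and 2161 CPM in pGIPZ-NC against 1901, 1846 and 1844 CPM in shUSP39. The groups did not overlap in either sum.

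ACACA, the acetyl-CoA carboxylase that commits acetyl-CoA to fatty acid synthesis, lies on GRCh37 chromosome 17 at 35441927 to 35766927. Its level was 11.7, 9.51 and 10.6 CPM in pGIPZ-NC against 8.19, 8.43 and 8.08 CPM in shUSP39. The shUSP39 libraries were close to each other and all lower. The log2 fold change was -0.36 ± 0.13 (SE, n = 3 libraries per group) (adjusted p = 0.0356, edgeR). This call was not stable, since it was lost in 9 of 16 alternative settings, where the adjusted p over all 16 ran from 0.0254 to 0.197. Leaving out pGIPZ-NC replicate 1 gave 0.154, leaving out pGIPZ-NC replicate 3 gave 0.0679, and leaving out shUSP39 replicate 1, 2 or 3 gave 0.0662, 0.0640 and 0.0868. The table held 3 of its 5 curated RefSeq transcripts, and none of these 3 passed by itself.

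FASN, the multienzyme that assembles palmitate, lies on chromosome 17 at 80036214 to 80056170. It was counted at 2869, 3135 and 3219 CPM in pGIPZ-NC against 2396, 2589 and 2603 CPM in shUSP39, or 3074 ± 183 against 2530 ± 116 (SD, n = 3). Its highest shUSP39 library was under its lowest pGIPZ-NC library. Its log2 fold change was -0.28 ± 0.04 (adjusted p = 1.68e-05, edgeR). The level fell by 17.7%, with a 95% interval from -22.3% to -12.9%.

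ELOVL6, which lengthens palmitate to stearate, lies on chromosome 4 at 110967002 to 111120355 and had the largest fall of the group. Its level was 6.90, 6.93 and 8.50 CPM in pGIPZ-NC against 4.66, 3.69 and 5.34 CPM in shUSP39. All shUSP39 values were lower, with a spread of 7.44 ± 0.917 CPM in pGIPZ-NC against 4.56 ± 0.829 CPM in shUSP39 (SD, n = 3). The log2 fold change was -0.70 ± 0.17 (adjusted p = 0.00220, edgeR), and its 95% interval ran from -1.06 to -0.35. The table held 1 of the 2 curated RefSeq transcripts of ELOVL6.

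SCD, which puts the first double bond into stearate and palmitate, lies on chromosome 10 at 102106990 to 102124583, just past the stretch printed above. It was at 1648, 1678 and 1664 CPM in pGIPZ-NC against 1496, 1441 and 1444 CPM in shUSP39. The fall was small and the libraries of each group were tight, at 1663 ± 14.7 against 1460 ± 30.8 CPM (SD, n = 3). On the log2 scale SCD changed by -0.19 ± 0.03 (adjusted p = 6.69e-06, edgeR). The 95% interval, from -0.25 to -0.13, did not reach that of ELOVL6. A test of the difference between these genes was not run.

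FADS1 and FADS2, the delta-5 and delta-6 desaturases that act on polyunsaturated fatty acids, lie on opposite strands of chromosome 11, where FADS1 (61567099 to 61596790, minus strand) is within the annotated span of FADS2 (61560452 to 61634826, plus strand). FADS1 was at 405.4, 402.0 and 420.2 CPM in pGIPZ-NC against 350.2, 350.6 and 342.5 CPM in shUSP39. FADS2 was at 53.8, 57.4 and 58.1 CPM in pGIPZ-NC against 42.0, 42.0 and 43.7 CPM in shUSP39. In both desaturases the 2 groups were well apart. The log2 fold change was -0.23 ± 0.04 for FADS1 and -0.41 ± 0.07 for FADS2 (adjusted p = 6.12e-06 and 2.03e-05, edgeR). The annotation gives the 2 genes exonic bases in common on opposite strands, and whether strand was used in counting is not stated, so reads from that stretch cannot be told apart. FADS2 also shares exonic bases with FEN1 on the same strand. The FADS2 transcript NM_004265.3, with 94.4% of the counts of the gene, fell by 0.43 on the log2 scale.

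**Figure D2:**
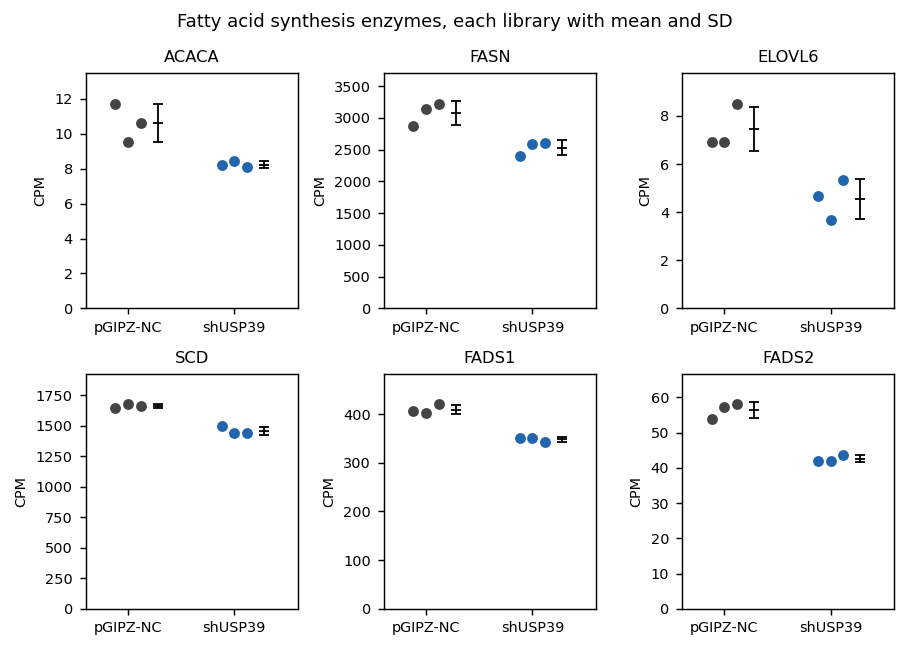
Level in CPM (y axis, from 0, its own scale per gene) of the 6 fatty acid synthesis enzymes in each pGIPZ-NC and shUSP39 library. Points are libraries, and the bar beside them is the mean with the SD over 3 libraries. In every panel the 3 shUSP39 points lie below the 3 pGIPZ-NC points.

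In the sterol synthesis group, 17 of the 19 enzymes had a row and 16 were tested. Of these 2 were higher (MVD and FDFT1), 1 was lower (ACAT1) and 13 did not pass, beside 16.1% and 17.5% of all genes. The median log2 fold change was 0.05, with 10 positive and 6 negative values. The summed level was 882.9, 852.0 and 856.4 CPM in pGIPZ-NC against 830.2, 798.6 and 796.6 CPM in shUSP39, and ACAT1 and SQLE carried much of it. ACAT1 was at 199.4, 179.8 and 177.9 CPM in pGIPZ-NC against 126.5, 120.6 and 118.4 CPM in shUSP39. The lower sum therefore does not describe the other sterol enzymes.

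The first step joins acetyl-CoA units and has a pair of thiolases that differ in place. ACAT1, the mitochondrial thiolase, which also works in ketone body and isoleucine metabolism, lies on chromosome 11 at 107987422 to 108018330. Its level was 199.4, 179.8 and 177.9 CPM in pGIPZ-NC against 126.5, 120.6 and 118.4 CPM in shUSP39. This was the clearest separation among the sterol enzymes. The table held 1 of the 13 curated RefSeq transcripts of ACAT1, so this row may not stand for the whole gene. On the log2 scale ACAT1 changed by -0.61 ± 0.05 (adjusted p = 1.39e-10, edgeR). The level fell by 34.4%, with a 95% interval from -38.8% to -29.6%. ACAT2, the cytosolic thiolase, which feeds the sterol pathway, overlapped between groups at 25.5 ± 2.11 against 26.8 ± 1.97 CPM (SD, n = 3). Its log2 fold change was 0.07 with a 95% interval from -0.12 to 0.25, which lies apart from that of ACAT1 (-0.71 to -0.51). Exons of ACAT2 overlap those of TCP1 and SOD2 on the opposite strand, so its counts are less certain.

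HMGCS1, which condenses the next acetyl unit to HMG-CoA, was under the filter, with 9, 0 and 6 counts in pGIPZ-NC and 12, 5 and 6 in shUSP39. The table held 1 of its 9 curated RefSeq transcripts, so these counts do not describe the whole gene. PMVK, the phosphomevalonate kinase, did not pass, with a log2 fold change of -0.07 (95% interval -0.22 to 0.07).

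MVD makes isopentenyl diphosphate, the isoprenoid unit, and lies on chromosome 16 at 88718343 to 88729569. It was at 80.3, 86.8 and 86.1 CPM in pGIPZ-NC against 98.7, 92.3 and 98.4 CPM in shUSP39. Every shUSP39 library was higher than every pGIPZ-NC library. The log2 fold change was 0.19 ± 0.06 (adjusted p = 0.00729, edgeR). IDI1, the isomerase of that unit, and FDPS, the farnesyl diphosphate synthase, were low and did not pass, with log2 fold changes of 0.31 (95% interval -0.14 to 0.76) and -0.33 (-0.74 to 0.08). The table held 3 of 4 curated transcripts of IDI1 and 2 of 7 of FDPS.

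FDFT1 makes squalene, the first product bound only for sterols, and SQLE oxidises it in a rate-limiting step. FDFT1 was at 4.52, 5.02 and 6.87 CPM in pGIPZ-NC against 7.88, 9.18 and 6.59 CPM in shUSP39, so the groups overlapped. Its log2 fold change was 0.53 ± 0.18 (adjusted p = 0.0197, edgeR). The call was lost in 5 of 16 alternatives, with adjusted p of 0.111 and 0.0936 without pGIPZ-NC replicates 1 and 2 and 0.134 without shUSP39 replicate 2. Over the 16 the adjusted p ran from 0.00559 to 0.134. The count was spread over 6 rows of 11 curated transcripts, and none of its 4 tested transcripts passed alone. SQLE was at 291.0, 286.9 and 285.0 CPM in pGIPZ-NC against 284.6, 272.4 and 263.5 CPM in shUSP39. The nearest libraries of the 2 groups were less than 1 CPM apart, and the means were 287.6 and 273.5 CPM. The log2 fold change of -0.07 (95% interval -0.15 to 0.01) did not pass (adjusted p = 0.158, edgeR). Without shUSP39 replicate 1 it was -0.11 and passed, with an adjusted p of 0.0476.

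The later enzymes turn squalene epoxide into cholesterol, and none passed. LSS, the lanosterol cyclase, was at 1.44 ± 0.168 against 1.74 ± 0.361 CPM. CYP51A1, the lanosterol demethylase, was at 52.8 ± 1.89 against 54.6 ± 1.295 CPM, with a log2 fold change of 0.05 (95% interval -0.08 to 0.18). MSMO1, whose promoter stretch holds the sterol element letters, was at 18.4 ± 0.696 against 18.2 ± 4.06 CPM, and its log2 fold change of -0.02 had an interval from -0.27 to 0.23. The shUSP39 libraries of MSMO1 ran from 13.8 to 21.9 CPM, on both sides of the pGIPZ-NC libraries. NSDHL, a sterol dehydrogenase that removes the C4 methyl carbons, HSD17B7, the ketoreductase, and SC5D, the desaturase, had log2 fold changes of -0.41, 0.14 and 0.37. EBP, the sterol isomerase, was at 0.06 (95% interval -0.04 to 0.16), and DHCR7, which performs the last reduction, at 0.01 (-0.24 to 0.25). For EBP, CYP51A1, ACAT2 and PMVK these intervals leave no room for a change of 1.5-fold, whereas those of NSDHL, LSS and IDI1 do. CYP51A1 shares exonic bases with AKAP9 on the opposite strand and with unnamed coding genes on its own strand, as does EBP with 1 such gene, so their counts are less certain. The table held 2 of 4 curated transcripts of LSS and of PMVK, 1 of 3 of NSDHL and of MSMO1, and 2 of 3 of HSD17B7. For DHCR7 it held 1 of 16. The rows and intervals of these genes may therefore not stand for the whole genes.

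**Figure D3:**
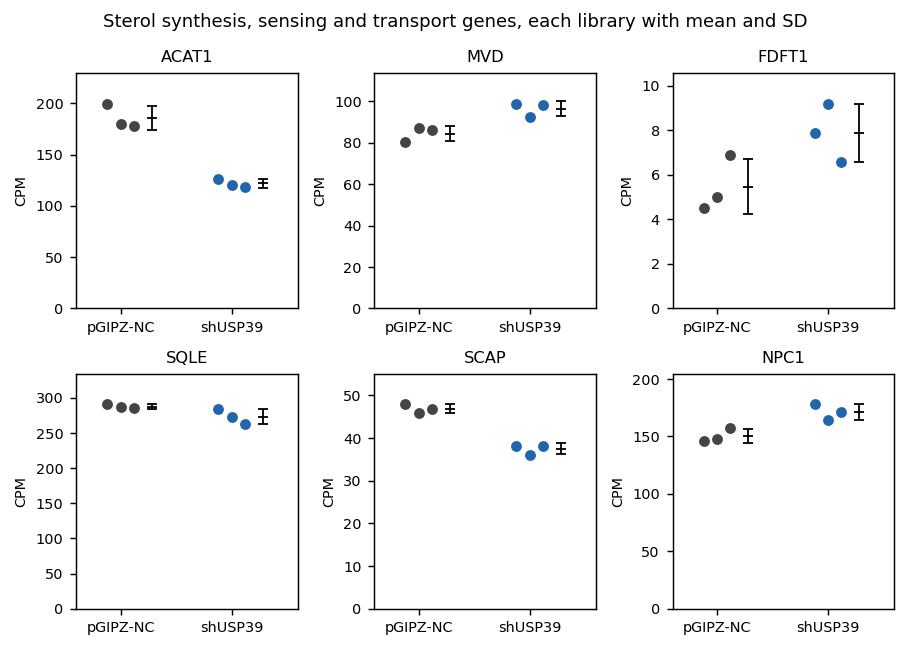
Level in CPM (y axis, from 0, its own scale per gene) of 6 genes of sterol synthesis, sensing and transport in each pGIPZ-NC and shUSP39 library. Points are libraries, and the bar beside them is the mean with the SD over 3 libraries. ACAT1 and SCAP are lower in shUSP39, MVD and NPC1 are higher, FDFT1 overlaps between groups, and SQLE differs by little.

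Among the SREBP regulators, 4 of 5 had a row and 2 were tested. SCAP, which lies on chromosome 3 at 47455171 to 47518616, was at 47.9, 45.8 and 46.8 CPM in pGIPZ-NC against 38.2, 36.04 and 38.2 CPM in shUSP39. The groups were far apart for their spread of 46.8 ± 1.04 against 37.5 ± 1.24 CPM (SD, n = 3). Its log2 fold change was -0.32 ± 0.07 (adjusted p = 5.62e-04, edgeR). The table held 1 of the 2 curated RefSeq transcripts of SCAP.

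SREBF1, the SREBP gene linked most to fatty acid synthesis, had 8, 22 and 17 counts in pGIPZ-NC and 2, 10 and 7 counts in shUSP39. The groups overlapped, and the log2 fold change of -1.28 had a 95% interval from -2.68 to 0.12 (adjusted p = 0.160, edgeR), so a change was not shown at this depth. INSIG1 and INSIG2, the proteins that retain SCAP, were under the filter. INSIG1 had 2, 13 and 6 counts in pGIPZ-NC and 7, 3 and 3 in shUSP39, and INSIG2 had 2, 3 and 2 against 9, 5 and 6. For these 3 genes the table held few of the curated transcripts, namely 2 of 13 for SREBF1, 1 of 8 for INSIG1 and 2 of 6 for INSIG2, so the rows may not stand for the genes.

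Among the sterol transport genes, 4 of 5 were tested and 1 passed, where 33.6% of all genes passed. NPC1, the lysosomal membrane protein mutated in Niemann-Pick disease type C, lies on chromosome 18 at 21086148 to 21166470. It was at 145.7, 147.8 and 157.0 CPM in pGIPZ-NC against 178.1, 164.6 and 171.4 CPM in shUSP39. All shUSP39 libraries were higher, with a log2 fold change of 0.19 ± 0.05 (adjusted p = 0.00171, edgeR). Its soluble partner NPC2 was at 192.4, 187.6 and 189.8 CPM against 201.1, 208.7 and 198.8 CPM. The NPC2 groups did not overlap, but its log2 fold change of 0.10 (95% interval 0.01 to 0.18) missed the threshold (adjusted p = 0.0762, edgeR). NPC1 shares exonic bases with RMC1 and NPC2 with ISCA2, in both cases on opposite strands. For NPC2 the table held 1 of 3 curated RefSeq transcripts, so its row may not stand for the gene.

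ABCA1, the pump that exports cholesterol to apolipoprotein A-I, was at 15.7, 17.4 and 16.7 CPM in pGIPZ-NC against 15.6, 17.7 and 13.2 CPM in shUSP39. The groups overlapped, with a log2 fold change of -0.10 (95% interval -0.33 to 0.13). STARD4, a cytosolic sterol carrier, was scarce at under 1 CPM in every library, and its log2 fold change of 0.12 had an interval from -1.33 to 1.57. The table held 1 of its 7 curated RefSeq transcripts, so the row may not stand for the gene. ABCG1, a second exporter, had at most 3 counts in any library and gets no fold change.

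Levels were compared per length among the 8 members with a single curated RefSeq transcript, which was the row counted. FADS1, EBP and NPC1 share exonic bases with other coding genes, as given above, so their levels and places in the order are less certain. In CPM per kilobase of transcript, the pGIPZ-NC means were 363.2 for FASN and 317.1 for SCD, then 101.4 for EBP, 97.1 for SQLE and 93.8 for FADS1, then 46.9 for MVD, 31.6 for NPC1 and 1.596 for ABCA1. The SDs over libraries were 21.6 for FASN, 2.79 for SCD, 1.94 for EBP, 1.04 for SQLE and 2.22 for FADS1, so SQLE and FADS1 were close in pGIPZ-NC. In shUSP39 the same order held, from 298.9 ± 13.7 for FASN and 278.4 ± 5.88 for SCD down to 1.49 ± 0.219 for ABCA1. Of these 8 genes, 2 were higher, 3 were lower and 3 did not pass, where 16.1% of all genes were higher and 17.5% lower. For genes with several transcripts, how shared reads were counted is not given in the sources used here, and their levels were not compared with each other.

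Transcripts were tested to see which gene values rest on a single row. Members had 53 transcript rows, of which 18 members had 1 row and 14 had at least 2. Of 39 rows tested, 9 passed, beside 29.3% of all 12553 transcripts tested. Among the 8 members with at least 2 tested transcripts, only FADS2 had one that passed, the NM_004265.3 row given above.

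A wider set of 54 genes around these pathways was counted in the same fit, and 43 were tested. Of these 6 were higher, 12 were lower and 25 did not pass, and 0 passed beyond 2-fold, with a median log2 fold change of -0.10. Over all genes tested 16.1% were higher, 17.5% were lower and 6.81% passed beyond 2-fold, and the counts of the smaller lists below are to be read against these shares. For SREBP processing and degradation, 1 of 8 tested genes was higher and 3 were lower. In the isoprenoid branches 1 of 11 was higher and 4 were lower. Among fatty acid activation and elongation genes 1 of 10 was higher and 3 were lower, in the LXR axis 1 of 5 was higher and 1 lower, and in lipid storage and sterol movement 2 of 9 were higher and 1 lower. In the activation and elongation list, FADS3 was higher, with a log2 fold change of 0.22 (adjusted p = 0.00256, edgeR). ACACB, ACSL3 and HSD17B12 were lower, at -0.28, -0.46 and -0.35. Among those that did not pass, ELOVL1, SCD5 and ELOVL5 were at 0.33, 0.13 and -0.002. A fall was thus not shared by every gene of that list.

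The 5 largest changes in this set that passed were in genes with different tasks. How many of their curated transcripts were counted was not examined, so these rows may not stand for the genes. LIPA, the lysosomal lipase that frees cholesterol from its esters, was at 2.35, 1.54 and 2.62 CPM in pGIPZ-NC against 3.56, 3.76 and 3.62 CPM in shUSP39, a log2 fold change of 0.75 ± 0.24 (adjusted p = 0.0164, edgeR). RXRA, the nuclear receptor that pairs with LXR, was at 4.45, 5.23 and 5.21 CPM against 10.2, 8.17 and 6.09 CPM, a log2 fold change of 0.72 ± 0.18 (adjusted p = 0.00221, edgeR). Both were higher in all shUSP39 libraries, though RXRA was spread widely there. FNTB, a subunit of protein farnesyltransferase, was at 7.75, 7.27 and 7.86 CPM against 5.47, 4.08 and 5.31 CPM, a log2 fold change of -0.62 ± 0.16 (adjusted p = 0.00374, edgeR). LPIN2, a phosphatidate phosphatase on the way to triglyceride, was at 188.9, 189.7 and 197.0 CPM against 126.4, 135.3 and 130.4 CPM, a log2 fold change of -0.55 ± 0.04 (adjusted p = 1.11e-10, edgeR). ACSL3, which activates long-chain fatty acids with coenzyme A, was at 12.6, 13.3 and 14.4 CPM against 9.81, 9.21 and 10.1 CPM, a log2 fold change of -0.46 ± 0.12 (adjusted p = 0.00336, edgeR). In these last 3 genes every shUSP39 library was below every pGIPZ-NC library.

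Chosen after their values were seen, MBTPS1 and MBTPS2, the Golgi proteases that cut SREBP once SCAP has delivered it, are given beside SCAP. MBTPS1 was at 411.1 ± 9.59 CPM in pGIPZ-NC against 343.3 ± 3.94 CPM in shUSP39, a log2 fold change of -0.26 ± 0.04 (adjusted p = 1.27e-06, edgeR). MBTPS2 was at 83.9 ± 7.95 against 68.1 ± 3.08 CPM, a log2 fold change of -0.30 ± 0.07 (adjusted p = 5.80e-04, edgeR). In the same list of 8 tested genes, C12orf49, a factor needed for this cleavage, was higher, at 209.5 ± 6.99 against 237.5 ± 7.05 CPM (log2 fold change 0.18 ± 0.04, adjusted p = 9.93e-04, edgeR), so the genes around SCAP did not all move one way.

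**Figure D4:**
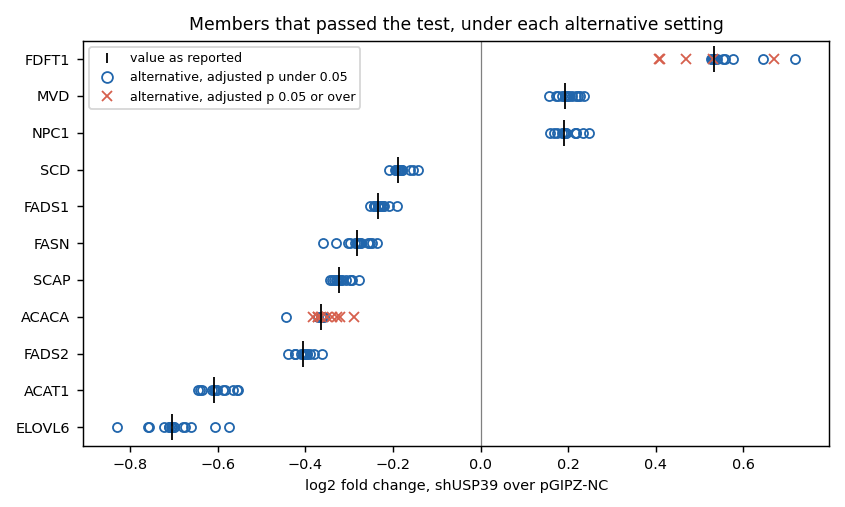
Log2 fold change of shUSP39 over pGIPZ-NC (x axis) for the 11 genes that passed (y axis) under each alternative setting. Black ticks are the reported values, circles are alternatives with an adjusted p under 0.05 and crosses those at 0.05 or over. The crosses lie at ACACA and FDFT1, and no gene changes sign.

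The direction of all 11 calls held in the 16 alternative settings, and 9 of the 11 kept their side of the threshold in each of them. The exceptions were ACACA and FDFT1. With shUSP39 replicate 1 as the sole knockdown library, FASN, SCD, FADS1, FADS2, ELOVL6, SCAP, ACAT1, MVD and NPC1 still passed, with the spread of the lone library taken to be like that of pGIPZ-NC.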

How the data were processed

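RNA-seq libraries of A2780 cells, 3 pGIPZ-NC and 3 shUSP39, were grouped and numbered from the sample labels. The table the authors deposited gives, for each library, the unscaled read count of every RefSeq mRNA. The submitters' processing notes name HISAT2, Cufflinks and hg19 without their roles, and the counter, its annotation, its use of strand and its handling of shared reads are not given in the sources used here. If reads shared by transcripts were left out, levels of genes with several transcripts are too low. Deposited columns of group means, fold, p-value and q-value are the authors' own comparison and were not used.

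Rows that share a gene symbol were added up, which took 21368 rows to 16571 symbols. Of 47 symbols in the form of a date, 46 were restored through the accession. Low counts were removed with filterByExpr, TMM factors were applied and genes were tested with edgeR 4.0.16 (R 4.3.3, robust quasi-likelihood, group as the only term), with Benjamini-Hochberg adjustment over 10695 genes. CPM are counts per 1000000 of the TMM-scaled library total. A gene passed at an adjusted p under 0.05. The common biological coefficient of variation was 7.59%. Pairs of replicates differed by 4.63 to 7.52 times the variance expected from counting alone (chi-square per degree of freedom), so no library was taken for a repeat of another. Genes removed by the filter on low counts are given no fold.

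Members and lists were chosen with earlier results of these data known. Per-library values are given for members past the threshold, for SREBF1, SCAP, INSIG1, INSIG2, FASN, FDFT1, SQLE and ABCA1 whatever their change, and for the 5 related genes with the largest change that passed. Those of NPC2 and HMGCS1, and the values of MBTPS1, MBTPS2, C12orf49, KRT8, MUC16 and DCN, were added after their values were seen. So were those of FADS3, ACACB, HSD17B12, ELOVL1, SCD5 and ELOVL5. The promoter stretches were likewise chosen with the results known. Locations came from GENCODE 44 mapped to GRCh37. The test was checked on simulated data. Alternatives were scaling by DESeq2 1.42.0 size factors, by the upper quartile or by library size, a filter of 10 counts in each library or none, the DESeq2 Wald test, limma-voom (limma 3.58.1), a block for the replicate number, leaving out single libraries, shUSP39 replicate 1 alone, a 1.5-fold limit and the highest transcript per gene.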

Additional observations from a re-analysis of the deposited data

How the results depend on the processing

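All tests rest on 3 libraries a group, and genes of a few CPM have intervals too wide to show small changes. Over all genes, 3598 passed, and 2244 with shUSP39 replicate 1 alone. Those beyond 2-fold numbered 728, against 471 where each library needed 10 counts and 1226 at a 1.5-fold limit. The median change over all genes (log2) was 0.12 with no filter and 0.05 with upper-quartile scaling, against 0.01. Higher sterol synthesis enzymes numbered 2, but 1 with shUSP39 replicate 1 alone and 1 with the highest transcript per gene, and 1 to 2 with a library left out. Lower sterol synthesis enzymes numbered 1, and 1 to 2 with a library left out. The higher sterol transport genes numbered 2 in place of 1 under upper-quartile scaling and under library size only, where NPC2 passed with adjusted p of 0.00934 and 0.0244. Lower related genes numbered 7 in place of 12 with shUSP39 replicate 1 alone. The cause of these shifts was not tested. Signs reversed only in genes that did not pass. With shUSP39 replicate 1 alone the log2 fold change was -0.028 for ACAT2, -0.038 for LSS, 0.25 for MSMO1 and -0.45 for STARD4. MSMO1 was also at 0.03 with upper-quartile scaling and at 0.006 with library size only, and DHCR7 was at -0.001 with no filter. With a library left out, MSMO1 ran from -0.18 to 0.14, DHCR7 from -0.054 to 0.07, STARD4 from -0.37 to 0.92 and ABCA1 from -0.21 to 0.002.

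The correlations gave little sign that replicate numbers pair the libraries, but they do not exclude it. Deviations of same-numbered libraries from their group means correlated at 0.086, 0.012 and 0.025 over genes. The first of these was the highest of all pairs, whereas pGIPZ-NC replicate 2 correlated best with shUSP39 replicate 3 (0.034). With the replicate number as a block, 3981 genes passed in place of 3598. In that setting the higher sterol transport genes numbered 2, NPC2 having an adjusted p of 0.0338, and no other member changed its call.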
